A study of Mus musculus with 6 samples.

Results

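Complement components are soluble proteins of innate immunity, and 9 of their genes that microglia transcribe (C1qa, C1qb, C1qc, C1ra, C2, C3, C4b, Cfb and Cfp) were followed here by RNA-seq. They were found by gene symbol among the 41079 genes listed in the deposited tables, and all 9 passed the filter on low counts that left 14618 genes for testing. The cells were cultured microglia from brains of C57Bl/6N mice aged 1-3 days. Microglia were shaken off mixed glial flasks that had been fed with L-929 conditioned medium, so the cells of both groups had grown beside other glia, and the brains of several pups shared a flask. The 3 control libraries came from cells kept in serum-free DMEM/F12. The 3 optimized libraries came from cells given human TGFbeta, human IL34 and CX3CL1 at 100 ng/mL each according to the labels, to which the study's methods add cholesterol, insulin-transferrin-selenium and a collagen IV coating. The comparison addressed whether these niche factors change the transcripts of complement in cultured microglia. The study describes the libraries of a condition as biological replicates, while the labels do not say whether they came from separate litters or flasks, and the p-values measure the spread between these libraries.

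Complement runs as a chain of proteases. In the classical pathway, C1q binds a target and activates C1r and C1s, which cleave C4 and C2, and the resulting enzyme cleaves the central protein C3. In the alternative pathway, factor B (Cfb) forms the enzyme that cleaves C3, and properdin (Cfp) stabilises it. In the brain, microglia are the main source of C1q, and C1q and C3 are known for tagging synapses that microglia take up through complement receptor 3 (Itgam with Itgb2).

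The libraries held 20628148 to 27261839 counts, and 3 counts, the limit that a count of 0 allows, corresponded to 0.11 to 0.145 CPM (counts scaled to a common library total, counting error only). Microglia markers summed to 6510 to 6690 CPM, scaled with TMM factors, in control libraries and to 11100 to 13400 CPM in optimized libraries, with all 9 markers found in the table above 0 in each library. Astrocyte markers summed to 40.1 to 42.3 CPM in control and 29.8 to 34.9 CPM in optimized libraries, a difference that lay on Aldh1l1 (16.5 ± 1.47 and 4.64 ± 0.228 CPM, SD, n = 3 each), the only 1 of the 8 called. The other 7 summed to 23.8 to 27.1 CPM in control and 25.5 to 30.2 CPM in optimized libraries. They were picked after the data were seen because they were not called, so their sum cannot show whether astrocyte RNA changed. Slc1a2 and Slc1a3 lay lower in every optimized library (log2 fold change -0.59 and -0.51). Gja1 and Sox9 lay higher (0.49 and 0.54), and the rest overlapped between the groups. Neuron markers summed to 3.07 to 4.72 and 5.3 to 6.34 CPM. Oligodendrocyte lineage markers summed to 132 to 148 and 165 to 200 CPM. The endothelial sum of 78.8 to 94.4 and 271 to 349 CPM lay almost wholly on Flt1, with the defining gene Cldn5 at 0 in every library but optimized library 1, where it had 2 counts. Other macrophage and monocyte markers, mostly the mannose receptor gene Mrc1, summed to 309 to 352 and 57.4 to 69.1 CPM. In bulk RNA, fewer cells of a type and less RNA per cell cannot be told apart.

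Optimized library 1 stood apart from the rest. It held 115 genes with at least 10 counts there and at most 1 in each other library, against 0 to 5 such genes in the other libraries. A list of 11 epithelial markers, drawn up after genes such as Ltf, which encodes lactoferrin, had been seen in it, summed to 177 CPM in this library, to 1.1 to 1.49 CPM in control libraries, and to 2.55 and 2.18 CPM in optimized libraries 2 and 3. Ltf itself had 1534 counts in optimized library 1 and 1 to 3 counts in the others. Most of the sum there lay on Ltf, Prap1 and Lcn2, with 72.6, 42.2 and 40.7 CPM. Epcam, Krt18, Krt8 and Cdh1 had 3.6, 3.125, 2.27 and 1.66 CPM. Which cells these transcripts came from was not tested. Short genes were also low and long genes high in this library, with a median log2 difference from optimized libraries 2 and 3 of -0.28 in the shortest and 0.27 in the longest of 5 equal bins of gene length, taken as the ratio of counts to FPKM. A length trend was not particular to it. Optimized library 2 ran the other way against its group, from 0.236 in the shortest to -0.202 in the longest bin. Control library 1 ran from -0.112 to 0.0982 and control library 3 from 0.121 to -0.109. C1qa, C1qb, C1qc and Cfp lay in bin 1 (shortest), C1ra, C2 and Cfb in bin 2, and C3 and C4b in bin 4. Each fitted change of the 9 genes is therefore given with and without optimized library 1.

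**Figure D1:**
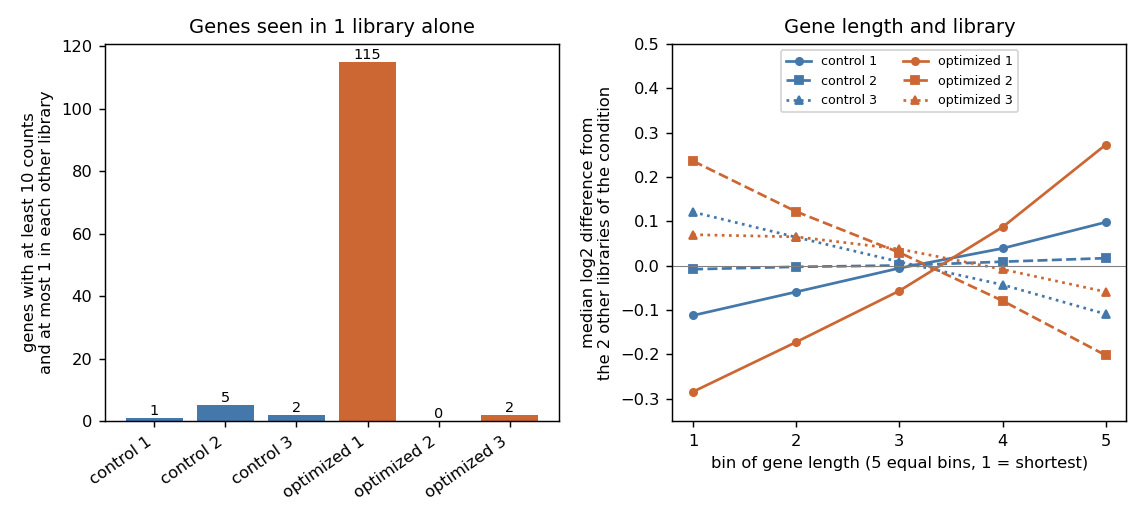
Left, the number of genes with at least 10 counts in a library and at most 1 in each of the others, for the 6 libraries, which was 115 in optimized library 1. Right, the median log2 difference of each library from the other 2 of its condition over 5 bins of gene length. Optimized library 1 ran from -0.28 in the shortest to 0.27 in the longest, and optimized library 2 from 0.236 to -0.202.

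Between control and optimized cultures, transcripts of C3, C1ra and Cfp fell, with the largest fall in C3 (log2 fold change -1.98). The 3 C1q chains carried most of the complement counts in every library. None of the 9 genes was called higher with all 6 libraries, though the log2 fold changes of the C1q chains and C4b were positive. With edgeR's quasi-likelihood test and Benjamini-Hochberg adjustment over all 14618 genes, 3 of the 9 passed the threshold of 0.05 and 6 did not. The background in this comparison was 29.8% of all genes tested, with 14.7% higher and 15.2% lower. Their median change was -0.33 on the log2 scale, where the median over all genes tested was 0.0079. The count of 0 higher genes was also 0 at an unadjusted p under 0.05 in edgeR, and DESeq2 and limma called 0 as well, with 1 gene (C1qa) under 0.05 unadjusted in DESeq2. Without optimized library 1, C1qa, C1qb and C1qc passed as higher and C1ra, C3, Cfb and Cfp as lower, 7 of 9, with a median change of -0.21 over the 9 genes and a background of 35.1% called, 17.4% higher and 17.7% lower.

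**Figure D2:**
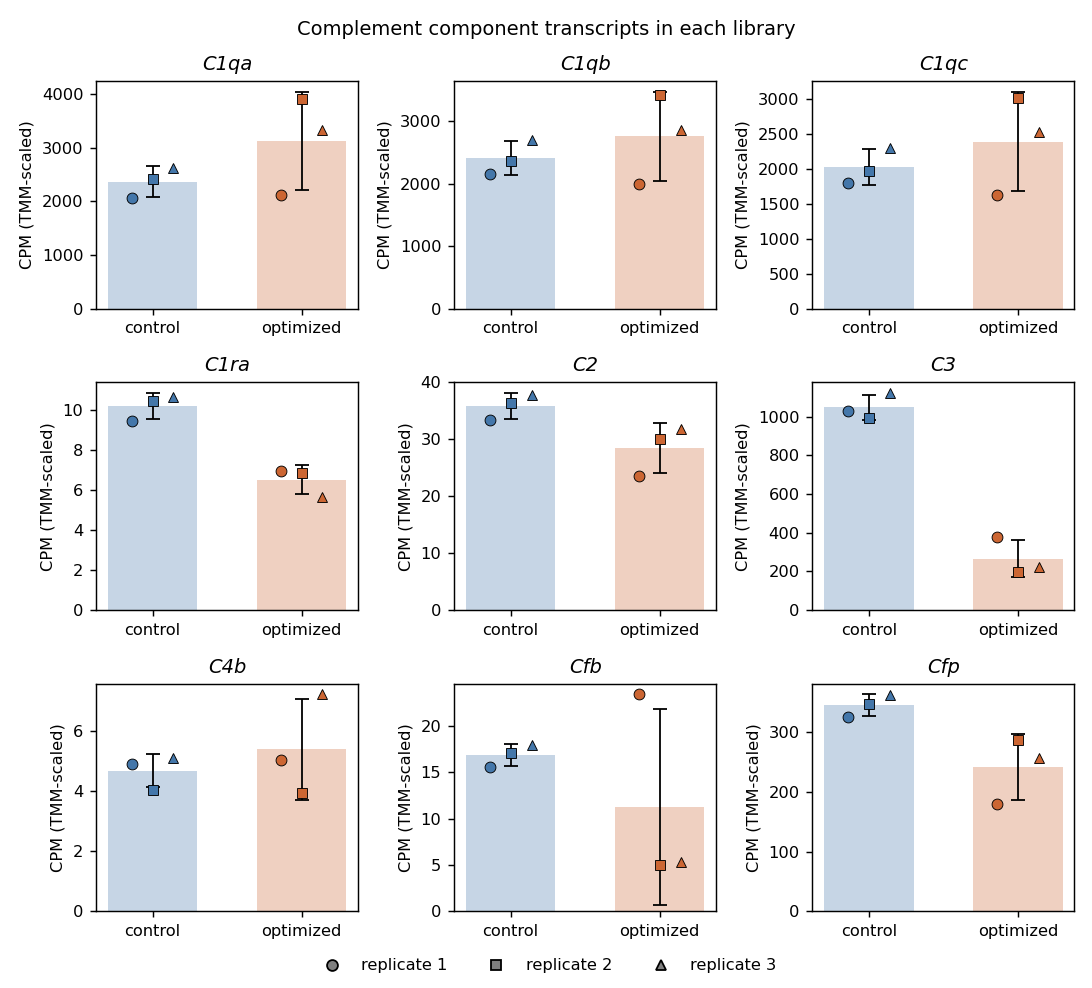
CPM after TMM scaling for each of the 9 genes, with a point for each library, the mean as a bar and the SD as an error bar (n = 3). C3 and C1ra were lower in every optimized library than in any control library, while optimized library 1 lay apart for Cfb (23.4 CPM against 4.94 and 5.32 CPM).

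C1q is the recognition protein of the classical pathway, built from equal numbers of A, B and C chains that are encoded by C1qa, C1qb and C1qc side by side on the minus strand of chromosome 4 (GRCm39 chr4:136623223-136626161, chr4:136606009-136613511 and chr4:136616466-136620376). C1qa had 2069, 2406 and 2627 CPM in control libraries 1 to 3 and 2119, 3911 and 3334 CPM in optimized libraries 1 to 3. The groups overlapped only through optimized library 1, which lay near the lowest control library. The means were 2367 ± 281 and 3121 ± 915 CPM (mean ± SD of 3 libraries each), with a log2 change of 0.40 ± 0.20 (SE, adjusted p = 0.178 by edgeR's quasi-likelihood test). Without optimized library 1 it was 0.61 ± 0.11 (SE, adjusted p = 6.1e-04), a call as higher.

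C1qb stood at 2163, 2369 and 2693 CPM in control and 1997, 3413 and 2856 CPM in optimized libraries. Here optimized library 1 was the lowest of the 6 and the other optimized libraries the highest. Its log2 fold change was 0.19 ± 0.18 (SE, adjusted p = 0.477), and 0.38 ± 0.11 (SE, adjusted p = 0.0168) without that library. C1qc, at 1800, 1965 and 2303 CPM in control and 1620, 3018 and 2532 CPM in optimized libraries, had the same order, with a log2 change of 0.24 ± 0.20 (SE, adjusted p = 0.426) and, without optimized library 1, of 0.46 ± 0.12 (SE, adjusted p = 0.00642). All 3 chains were called higher without that library, and with it C1qa alone was called once a gene length trend had been removed (adjusted p = 0.0414). Without optimized library 2 instead, the log2 changes of C1qa, C1qb and C1qc were 0.19, -0.00028 and 0.026. None passed in that fit (edgeR adjusted p = 0.466, 0.999 and 0.935). In optimized library 1 the chains' log2 differences from the mean of optimized libraries 2 and 3 were -0.77 for C1qa, -0.65 for C1qb and -0.77 for C1qc, alongside the low level of short genes there, whose part in the result was not tested.

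The balance of the chains within a library does not depend on library scaling. For each count of C1qa there were 1.05, 0.985 and 1.03 counts of C1qb in control libraries and 0.943, 0.873 and 0.857 in optimized libraries, 1.02 ± 0.031 against 0.891 ± 0.0457 (mean ± SD of 3 libraries each). For C1qc the ratio was 0.87, 0.817 and 0.877 in control and 0.765, 0.772 and 0.759 in optimized libraries, 0.854 ± 0.0328 against 0.765 ± 0.00612 (mean ± SD of 3 libraries each). Both ratios were lower in every optimized library, optimized library 1 included, than in any control library. The differences were -0.19 and -0.16 on the log2 scale, each with an exact permutation p of 0.1 (two-sided), which is as low as 3 against 3 libraries can go. The difference between the groups was larger than the spread between libraries in both ratios. Leaving out optimized library 1 gave log2 differences of -0.24 and -0.16 (exact permutation p = 0.2 each, the smallest that 3 against 2 allows).

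C1q took 0.645%, 0.718% and 0.764% of all counts in control libraries and 0.587%, 0.928% and 0.827% in optimized libraries. Of the counts on the 9 genes it took 81.0%, 82.7% and 83.1% in control and 90.3%, 95.1% and 94.3% in optimized libraries. The groups did not overlap, and the mean share was 11.0 percentage points higher in optimized libraries (exact permutation p = 0.1, the smallest possible). With optimized library 1 left out it was 12.45 points higher (exact permutation p = 0.2, the smallest that 3 against 2 allows). The share of C3 went from 13.8%, 12.2% and 12.2% in control to 5.91%, 1.83% and 2.4% in optimized libraries. Shares of the 9 genes add up to the whole, so the fall of C3 by itself raises the C1q share. In optimized library 1 that share was higher than in any control library, although C1q took less of all counts there (0.587%). Per length, on the FPKM scale, the C1q share was 93.4 ± 0.432% in control and 97.1 ± 0.716% in optimized libraries (mean ± SD of 3 libraries each).

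**Figure D3:**
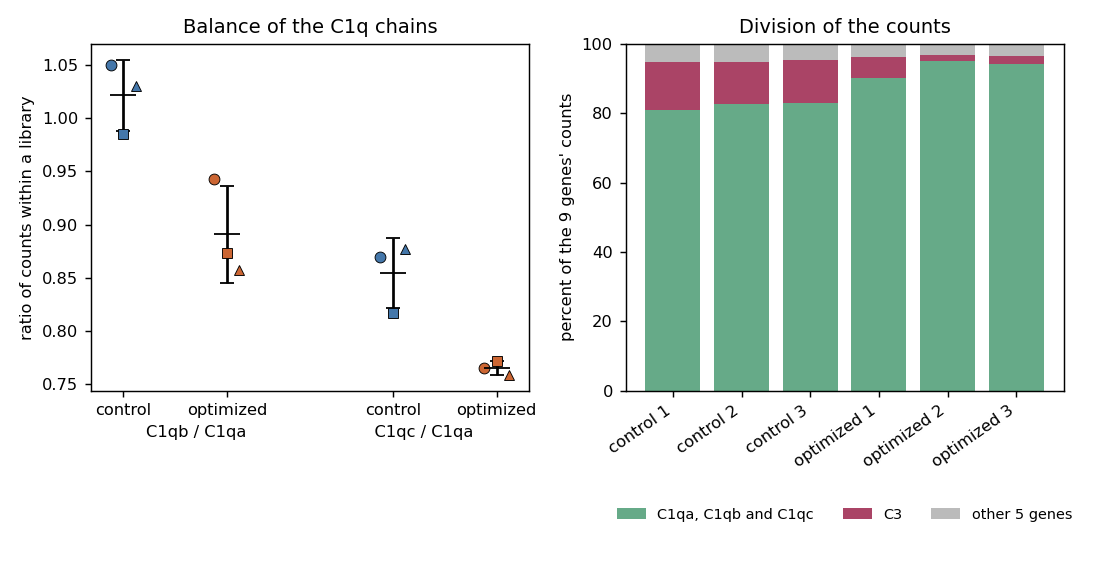
Left, counts of C1qb and of C1qc divided by counts of C1qa in each library, with mean and SD (n = 3), where all optimized libraries lay below all control libraries. Right, the percent of the 9 genes' counts on the C1q chains, on C3 and on the other 5 genes, where the C1q share was 81.0% to 83.1% in control and 90.3% to 95.1% in optimized libraries.

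Among the start regions of the 9 genes, read as the 250 bases before the start of the canonical GENCODE transcript in GRCm39, the only match to the PU.1 motif was in C1qc. PU.1, encoded by Spi1, is a factor of the macrophage lineage. The region, chr4:136620377-136620626 on the minus strand, is shown because it carries this match, with the matched letters in capitals (the reverse complement of GAGGAAGT, 44 bases before the start).
C1qc: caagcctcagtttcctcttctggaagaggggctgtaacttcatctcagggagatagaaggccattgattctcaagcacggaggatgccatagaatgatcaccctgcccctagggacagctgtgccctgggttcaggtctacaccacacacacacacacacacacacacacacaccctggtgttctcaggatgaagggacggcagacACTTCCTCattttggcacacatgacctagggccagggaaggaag
The motif GAGGAAGT, searched on both strands, occurred in 2.19% of 35086 start regions of the same length. C1qb held none of the motifs described here. The matches in the 9 genes did not overlap each other, and a match is a description of the letters only.

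C1ra encodes C1r, the protease that C1q sets in motion, and lies on chromosome 6 (chr6:124489364-124500402, plus strand). It had 216, 256 and 291 counts in control and 147, 161 and 117 counts in optimized libraries, or 9.44, 10.4 and 10.7 CPM against 6.96, 6.86 and 5.66 CPM. Every optimized library was below every control library. C1ra fell from 10.2 ± 0.646 to 6.49 ± 0.722 CPM (mean ± SD of 3 libraries each), a log2 change of -0.65 ± 0.14 (SE, adjusted p = 0.00506 by edgeR's quasi-likelihood test). Without optimized library 1 it was -0.70 ± 0.15 (SE, adjusted p = 0.00184). Reads of C1ra may be shared with its near-identical neighbour C1rb, which was also lower, with counts of 64, 88 and 110 against 49, 46 and 18 (log2 fold change -1.01 ± 0.33 SE, adjusted p = 0.0417). Of the other genes of this step, C1rl, a C1r-like protease, did not pass (0.25 ± 0.27 SE), and C1s1 and C1s2, which encode the partner protease C1s, had 3 to 23 and 0 to 4 counts per library and were below the filter.

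The start regions of C1ra and of C3 were those among the 9 that matched the C/EBP motif (TTNNGCAA, 9.67% of start regions), and both are shown because these genes fell. C/EBP factors are known for driving acute-phase genes, C3 among them. The C1ra region is chr6:124489114-124489363 on the plus strand and the C3 region chr17:57535156-57535405 on the minus strand, with the match in capitals 65 and 26 bases before the start.
C1ra: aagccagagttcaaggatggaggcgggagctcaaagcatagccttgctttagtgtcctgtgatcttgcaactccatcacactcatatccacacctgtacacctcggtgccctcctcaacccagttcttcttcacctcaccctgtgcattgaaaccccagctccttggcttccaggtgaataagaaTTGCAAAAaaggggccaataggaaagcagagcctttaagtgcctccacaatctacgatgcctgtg
C3: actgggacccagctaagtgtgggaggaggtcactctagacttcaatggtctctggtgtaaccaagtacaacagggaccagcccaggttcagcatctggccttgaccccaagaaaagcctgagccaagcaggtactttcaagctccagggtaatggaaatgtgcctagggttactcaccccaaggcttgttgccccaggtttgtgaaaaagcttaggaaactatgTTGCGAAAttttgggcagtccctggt

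C3 is the protein on which all complement pathways converge, and its fragments bind complement receptor 3 and the C3a receptor. The gene lies at chr17:57510964-57535155 on the minus strand. It had 1027, 995 and 1121 CPM in control libraries and 375, 199 and 221.5 CPM in optimized libraries. Every optimized library was below every control library, and optimized library 1 was the highest of its group. C3 fell from 1048 ± 65.8 to 265 ± 96.1 CPM (mean ± SD of 3 libraries each), a 3.95-fold lower level, with a log2 change of -1.98 ± 0.21 (SE, adjusted p = 7.7e-05 by edgeR's quasi-likelihood test). Without optimized library 1 the log2 fold change was -2.32 ± 0.10 (SE, adjusted p = 2.6e-10), 4.98-fold. On the FPKM scale, which divides by gene length, C3 ranked 268 to 293 among all listed genes in control libraries and 683 to 1534 in optimized libraries. Astrocytes are a cell type that can also transcribe C3. Their 8 markers summed to 40.1 to 42.3 CPM in control and 29.8 to 34.9 CPM in optimized libraries, with Aldh1l1 alone called. The part of astrocytes in the C3 values was not tested.

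C2, the protease that joins C4 to form the classical C3-cleaving enzyme, lies at chr17:35081578-35117241 on the minus strand. It had 33.4, 36.4 and 37.8 CPM in control and 23.6, 30.0 and 31.9 CPM in optimized libraries. All optimized libraries were below the lowest control library, but the difference did not pass the threshold, with a log2 change of -0.33 ± 0.12 (SE, adjusted p = 0.0681) and, without optimized library 1, of -0.21 ± 0.09 (SE, adjusted p = 0.092). C2 shares 191 exonic bases with Zbtb12 on the opposite strand, which had a mean of 106.5 counts.

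C4b, which encodes C4, lies at chr17:34947354-34962912. It had 112, 99 and 139 counts in control and 106, 92 and 149 counts in optimized libraries, the lowest of the 9 genes in control libraries. The groups overlapped, with 4.67 ± 0.559 and 5.38 ± 1.68 CPM (mean ± SD of 3 libraries each), a log2 change of 0.20 ± 0.23 (SE, adjusted p = 0.575) and, without optimized library 1, of 0.24 ± 0.23 (SE, adjusted p = 0.469). Its highest value, 7.21 CPM in optimized library 3, stood beside the highest sum of fibroblast and mural cell markers (77.0 CPM there, 19.4 to 35.1 CPM in the other libraries), whose part was not tested. Reads may be shared with the near-identical paralog C4a, which had 13 to 39 counts per library (log2 fold change 0.38, adjusted p = 0.541).

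Factor B, encoded by Cfb next to C2 (chr17:35074852-35081559, minus strand), is the protease of the alternative pathway. Cfb had 356, 419 and 491 counts in control libraries and 494, 116 and 110 counts in optimized libraries, or 15.6, 17.1 and 18.0 CPM against 23.4, 4.94 and 5.32 CPM. Optimized library 1 was the highest of the 6 libraries, and the other optimized libraries were the lowest. The log2 fold change was -0.59 ± 0.49 (SE, adjusted p = 0.41), not past the threshold. Without optimized library 1 it was -1.72 ± 0.13 (SE, adjusted p = 1.3e-07 by edgeR's quasi-likelihood test), a 3.29-fold lower level. That library was also the 1 with 177 CPM on the epithelial list, mostly on Ltf, Prap1 and Lcn2. The part of these transcripts' source in the value was not tested. Cfb shares 1704 exonic bases with Nelfe on the opposite strand, and the strand setting of the counting was not given in the sources used here. Nelfe had 30.2, 32.1 and 29.7 CPM in control and 21.9, 32.7 and 31.3 CPM in optimized libraries, lowest where Cfb was highest.

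The Cfb start region (chr17:35081560-35081809, minus strand) is shown because it held the NF-kB consensus at 2 positions, 159 and 66 bases before the start, given in capitals. NF-kB is the factor of inflammatory gene induction for which Cfb is a known target.
Cfb: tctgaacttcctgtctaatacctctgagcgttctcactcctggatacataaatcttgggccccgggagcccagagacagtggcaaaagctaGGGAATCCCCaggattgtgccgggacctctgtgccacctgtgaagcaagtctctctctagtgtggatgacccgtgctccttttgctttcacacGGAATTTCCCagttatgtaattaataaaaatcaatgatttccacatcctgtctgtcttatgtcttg
This consensus occurred in 6.67% of start regions, and C4b also held it, 148 bases before its start. C2 and Cfp matched none of the motifs described here.

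Cfp encodes properdin, which stabilises the alternative pathway enzyme, and lies on chromosome X (chrX:20791688-20797794, minus strand). It had 326, 347 and 362 CPM in control and 180, 287 and 257 CPM in optimized libraries, with every optimized library below every control library. Cfp fell from 345 ± 18.2 to 242 ± 55.2 CPM (mean ± SD of 3 libraries each), a 1.43-fold lower level, with a log2 change of -0.51 ± 0.15 (SE, adjusted p = 0.0286 by edgeR's quasi-likelihood test). Without optimized library 1 it was -0.34 ± 0.08 (SE, adjusted p = 0.0056). The call was lost, with log2 changes of similar size, without control library 1, 2 or 3 (-0.56, -0.51 and -0.48, adjusted p = 0.0598, 0.0974 and 0.0826) and without optimized library 3 (-0.56, adjusted p = 0.0552). Factor D (Cfd), the protease that activates factor B, was at 0 counts in all 6 libraries, which allows up to 0.11 to 0.145 CPM.

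**Figure D4:**
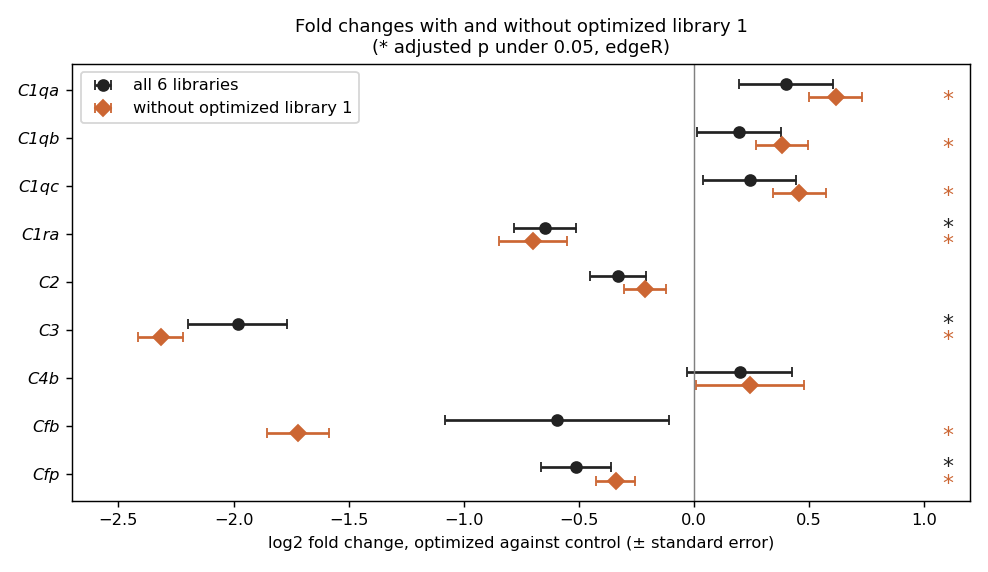
Log2 fold change of each of the 9 genes, optimized against control, with its standard error, for all 6 libraries (black) and without optimized library 1 (orange), and an asterisk where the adjusted p was under 0.05. Cfb moved most between the fits, from -0.59 to -1.72.

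Per length, on the FPKM scale of the authors, the 9 genes fell into levels far apart. The C1q chains were on top, with 2219 ± 208 FPKM for C1qa, 2212 ± 174 for C1qb and 1860 ± 172 for C1qc in control cultures (mean ± SD of 3 libraries each), and 2643 ± 688, 2288 ± 510 and 1986 ± 522 FPKM in optimized cultures. They ranked 16 to 37 among all listed genes in every library, with C1qc below C1qb in each of the 6 libraries. C1qa was above C1qb in each optimized library, while their order differed between control libraries. Cfp with 214 ± 7.21 and C3 with 204 ± 5.48 FPKM followed in control cultures, where Cfp was above C3 in each library but their ranges overlapped (206.3 to 220.5 and 198.6 to 209.6 FPKM). In optimized cultures Cfp at 136 ± 26.6 FPKM lay above C3 at 47.4 ± 18.8 FPKM in each library. Lower still were C2 (13.8 ± 0.637 and 9.92 ± 1.39 FPKM), Cfb (6.19 ± 0.321 and 3.81 ± 3.68), C1ra (3.74 ± 0.196 and 2.17 ± 0.244) and C4b (0.865 ± 0.0862 and 0.911 ± 0.303). In optimized libraries 2 and 3, Cfb fell below C1ra, at 1.57 and 1.8 against 2.18 and 1.92 FPKM.

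The other genes of the pathway were read from a list of 51, of which 9 were at 0 counts in all libraries and 27 passed the filter. Of these 27, 6 were higher, 7 lower and 14 not past the threshold, with a median log2 fold change of 0.22. Over all genes tested, 14.7% were higher and 15.2% lower. Leaving out optimized library 1 gave 8 of the 27 higher, 7 lower and 12 not past the threshold, with a median of 0.096. In that fit 17.4% of all genes were higher and 17.7% lower. The initiators of the lectin pathway that depend on liver, Mbl1 and Mbl2, were at 0. Masp1, a protease of that pathway, rose from 9.06 ± 0.0667 to 22.6 ± 2.45 CPM (log2 fold change 1.32 ± 0.11 SE), and Colec12, a membrane collectin, from 416 ± 4.23 to 839 ± 36.1 CPM (1.01 ± 0.09 SE). Masp2 and the ficolin gene Fcna did not pass (0.22 and 0.03, and 0.0042 and 0.19 without optimized library 1), and Masp2 shares 2585 exonic bases with Tardbp on the opposite strand. Of 7 terminal components, which form the membrane attack complex, C8g alone passed the filter (log2 fold change 0.05, adjusted p = 0.896), Hc, which encodes C5, had 0 or 1 count per library, and C7, C8a and C8b were at 0.

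A list of receptors for complement fragments and of proteins linked to C1q (Cd93, Calr, Lrp1 and C1qbp) divided in both directions. Of 10 tested, 4 were higher and 4 lower, where 14.7% of all genes were higher and 15.2% lower. Itgam, the alpha chain of complement receptor 3, rose from 798 ± 43 to 1410 ± 73.1 CPM (log2 fold change 0.82 ± 0.10 SE, adjusted p = 1.2e-04), while its beta chain Itgb2 had 1075 ± 77.1 and 1262 ± 121 CPM (0.23, adjusted p = 0.145, and 0.31, adjusted p = 0.0151, without optimized library 1). The anaphylatoxin receptors fell, C5ar1 from 583 ± 54.7 to 183 ± 21.4 CPM (-1.67 ± 0.12 SE) and C3ar1 from 1405 ± 52.3 to 977 ± 9.72 CPM (-0.52 ± 0.09 SE). C5ar2, a further receptor for C5a, rose (0.95 ± 0.13 SE), and Cd93, once proposed as a C1q receptor, fell most (-1.89 ± 0.15 SE). Itgax, the alpha chain of complement receptor 4, was lower (-0.59), Calr and Lrp1, which take part in uptake of C1q-tagged cells, were higher (0.70 and 0.67, and 0.80 and 0.39 without optimized library 1), and C1qbp did not pass (-0.08). Lrp1 overlapped between the groups, with 60397 counts in optimized library 1 against 37571 and 38251 in libraries 2 and 3.

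The background for the inhibitors was 29.8% of all genes tested called, with 14.7% of all genes higher and 15.2% lower. Without optimized library 1 it was 35.1%, with 17.4% higher and 17.7% lower. Of 10 soluble inhibitors, 5 passed the filter and 2 of them fell. Among them, Cfhr4 had 55, 113 and 89 counts in control and 5, 7 and 2 counts in optimized libraries (-3.97 ± 0.42 SE), though its reads may be shared with paralogs. The C1 inhibitor gene Serping1 (0.60, and 0.01 without optimized library 1), clusterin (Clu, 0.32) and Cfhr2 (0.29) did not pass, and Clu passed without optimized library 1 (0.55, adjusted p = 0.00267). Factor I (Cfi), the protease that cuts C3b and C4b, had 37 counts in optimized library 1 and 0 in the rest. Of 8 membrane inhibitors, 4 passed the filter and edgeR called 0 of them (0 at an unadjusted p under 0.05), while DESeq2 and limma also called 0, with 1 (Cd59b, below the filter of edgeR) and 0 at an unadjusted p under 0.05. The 4 were Cd55 (1.37 ± 0.95 SE, with 84 counts in optimized library 1 against 4 and 6 in libraries 2 and 3, and -1.29 without that library), Cd59a (0.20), Cr1l (0.01) and Cd46 (-0.09).

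**Figure D5:**
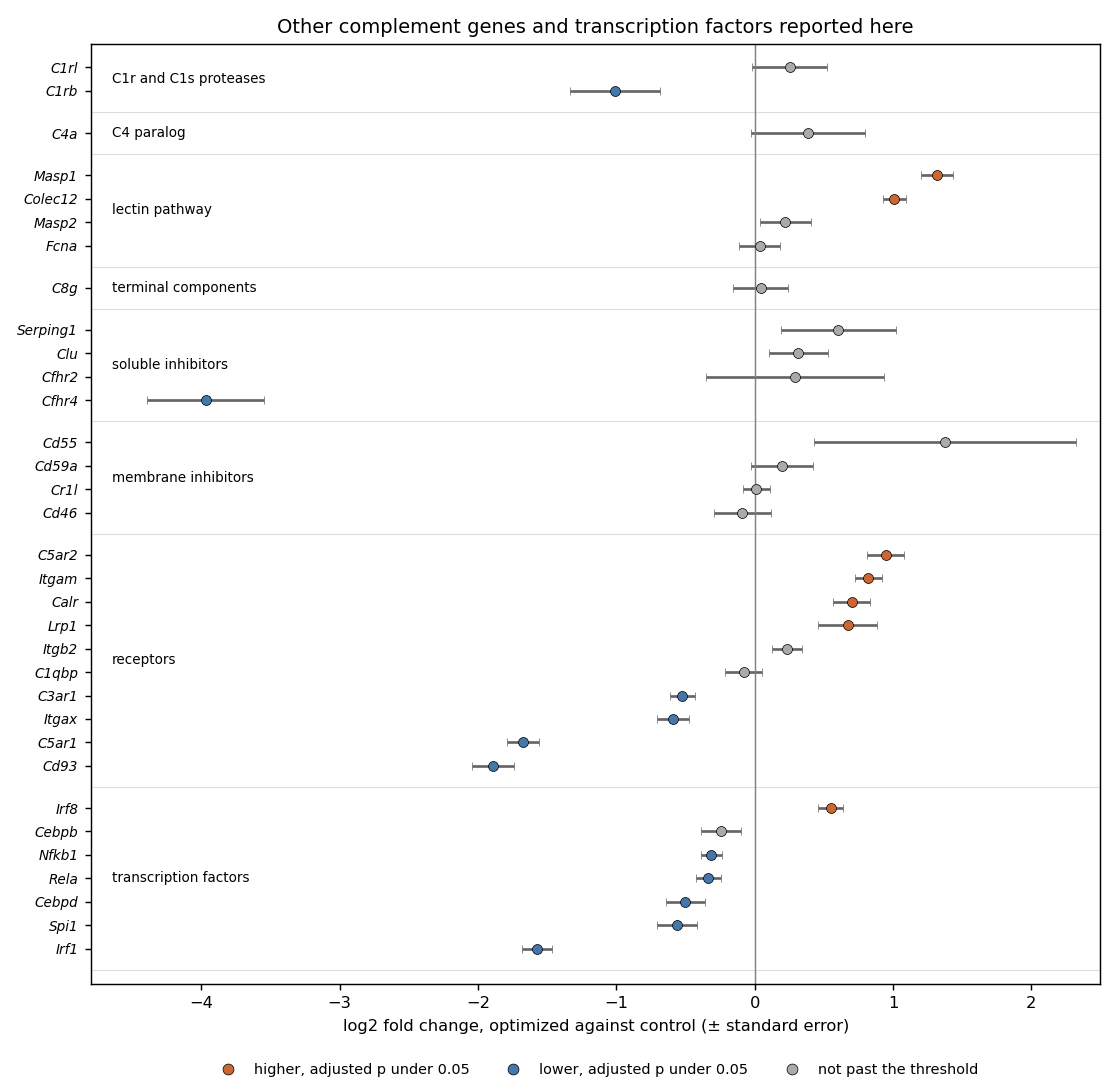
Log2 fold change, optimized against control, with its standard error, of the other complement genes reported here, by role, and of 7 transcription factors, coloured by edgeR's adjusted p. The role labelled receptors, which includes proteins linked to C1q, lay on both sides of 0, from -1.89 (Cd93) to 0.95 (C5ar2). Cfhr4 was lowest at -3.97.

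Factors known for acting on complement genes, a list of 9, were all tested, with 2 higher and 6 lower. The background was 14.7% of all genes higher and 15.2% lower. Irf8, a factor of the macrophage lineage, rose by 0.55 on the log2 scale (adjusted p = 0.00109 by edgeR's quasi-likelihood test). Irf1, an interferon-induced factor, fell most, from 95.4 ± 6.63 to 32.0 ± 3.77 CPM (-1.58 ± 0.11 SE, adjusted p = 3.4e-06). Spi1 (-0.56), Cebpd (-0.50) and the NF-kB subunits Rela (-0.34) and Nfkb1 (-0.31) were lower, and Cebpb did not pass (-0.24, adjusted p = 0.257). None of the 9 start regions matched the interferon-stimulated response element, 2 copies of GAAA set 2 bases apart (3.58% of start regions), which says only that these letters are not in this window.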

How the data were processed

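RNA-seq of 6 libraries of cultured mouse microglia was used. Reads had been aligned by the authors to mm39 using HISAT2 and assigned to genes using featureCounts (versions and strand setting not given in the sources used here). The deposited tables list 41079 genes, as raw counts in the first and as FPKM computed by the authors in the second. Samples were grouped from their labels, and no columns of other samples were present. The counts went into edgeR 4.0.16 under R 4.3.3, with filterByExpr (14618 genes left), TMM factors and the quasi-likelihood test. P-values were adjusted by Benjamini-Hochberg over these genes, and 0.05 was the threshold. The paper's methods name no test for these counts. The common dispersion was 0.0164, a coefficient of variation between replicates of 0.128. Ratios and shares within a library were compared with two-sided exact permutation tests. Libraries of a group differed by more than sampling noise, so none was a copy.

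The 9 genes and all lists were chosen with earlier results of these data known. All 9 genes are named. Of other complement genes, the highest and lowest log2 fold change per role, the best known members and the listed transcription factors are named, except for some items that are not reported here. Calr, Lrp1, Itgax, C1qbp and others beyond this rule, and the epithelial list, were chosen after their values were seen. Coordinates and start regions are from GENCODE M39 on GRCm39 (35087 symbols found, 35086 start regions read).

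The alternatives tried were DESeq2 1.42.0, library size alone, relative log expression factors, a replicate block, no filter, a minimum of 10 counts in every library, each library left out, and limma 3.58.1 on log2(FPKM + 1), on log2(FPKM + 0.1) and with a mean FPKM of at least 1. The pseudocount makes limma understate changes of genes with low FPKM. Removing a gene length trend, and both this and library size alone without optimized library 1, were added after the data were seen. The steps were tested on simulated counts.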

Additional observations from a re-analysis of the deposited data

How the results depend on the processing

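C3 and C1ra were called lower under all 18 alternatives, with log2 fold changes from -2.50 to -1.82 and from -0.88 to -0.56. Cfp was called in 14 of 18 (-0.68 to -0.34), C2 in 9 (-0.48 to -0.21), C1qa in 4 (0.19 to 0.61), C1qc in 3 (0.026 to 0.46), Cfb in 3 (-1.90 to -0.23), C1qb in 2 and C4b in 0 of the 17 that tested it.

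Leaving out each library in turn gave 2 to 7 of the 9 genes called, 0 to 3 higher and 2 to 4 lower, and the extremes 7 and 3 came without optimized library 1. The share of all genes called moved too, from 21.8% to 35.1%, and was also highest without optimized library 1. It was 10.7% to 17.4% for higher and 11% to 17.7% for lower genes. Over the same fits the log2 fold change of C1qb ran from -0.000282, without optimized library 2, to 0.38, and that of C4b from -0.068, without optimized library 3, to 0.37. Removing the gene length trend called 5 genes, 1 of them higher (C1qa, 0.40, edgeR adjusted p = 0.0414), where 35.7% of all genes were called. Removing the trend without optimized library 1 called 8, with 3 higher and 5 lower, against 38.4% of all genes. Library size alone without that library called 7, with 2 higher and 5 lower, against 40.1% of all genes. The cause of these shifts was not tested. Counts of the other complement genes called stayed within 1.5 times the reported ones under each alternative.

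Over all genes, 49.1% of calls were higher with TMM factors, 32.3% with library size alone, which moved the median log2 fold change to -0.12, and 31.1%, 31.3% and 28.4% with limma on the FPKM values at pseudocounts 1 and 0.1 and with the filter on mean FPKM. With the replicate block, 4 genes were called, where 33.7% of all genes were, and C2 passed (-0.34, edgeR adjusted p = 0.0192). Same-numbered libraries correlated in their deviations at 0.273, -0.0123 and 0.185, and the other pairs at -0.294 to 0.189. These values do not settle whether the libraries were paired. The labels do not say that the numbers mark a shared harvest, so the reported fit used no block. Genes with few counts, such as C4b and C1ra, carry the larger counting errors.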

Other observations

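Some transcripts of the pathway were seen in optimized library 1 alone or almost alone. Cfi had 37 counts, C4bp 6 and C9 4 there, with 0 in the other libraries. Among the epithelial markers, Prap1 had 892 counts there against 0 to 7 elsewhere, Lcn2 860 against 17 to 35, and Pigr 171 against 0 or 1. The fibroblast and mural cell list differed by library as well, with 651 counts of Col1a1 in optimized library 3 against 188 to 271 in the others.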
